A study of Arabidopsis thaliana with 12 samples.

Results

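The 299 loci described here are those the authors listed as changed against wild type in both MYB2 lines. They made up 23.5% of the 1271 loci listed for the MYB2 overexpression line and 28.6% of the 1045 loci listed for the MYB2-SRDX line, out of 2424 different loci listed in the series. The tables held only listed loci, so a locus listed for 1 of these lines has no value in the other and could not be compared. RNA was sequenced from whole roots of Arabidopsis thaliana seedlings grown for 8 days in darkness, with 3 libraries per genotype. MYB2-OE carried Pro35S:MYB2, MYB2-SRDX carried Pro35S:MYB2-SRDX and is labelled dominant negative, and Col was the wild type. A further line, LBD29-OE (Pro35S:LBD29-6Gly), is used below only as a side reading. The 35S promoter is active in most tissues, so neither MYB2 protein was limited to the cells that normally make MYB2. Whether each line came from 1 insertion event is not given in the sources used here. Nothing in the labels says that the 3 libraries of a genotype came from separate cultures, so the tests measure the spread between these libraries, which may be technical.

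MYB2 (AT2G47190) encodes an R2R3-type MYB transcription factor that has been known as an activator of genes responding to abscisic acid and water deficit. SRDX is a short repression motif of the plant EAR type, and its fusion to an activator is used to silence the genes that the activator would switch on. A locus that stands above Col in MYB2-OE and below it in MYB2-SRDX is therefore the pattern for which such a pair of lines is made. The reverse order does not follow directly from that design. The comparison asks which functions lay on opposite sides of Col in the lines and which lay on the same side.

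Levels are in FPKM, fragments scaled to transcript length and library size, which corrects for gene length but holds no record of sequencing depth. The authors' deposited tables gave a log2 fold change against Col, and each listed locus passed an absolute value of 1 and a Q-value under 0.001. The locus nearest that limit among the 299 stood at an absolute log2 of 1.0026 in MYB2-OE and at 1.0027 in MYB2-SRDX. Loci just outside it have no values.

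MYB2 RNA stood far above Col in both lines. MYB2 measured 636, 375 and 585 FPKM in MYB2-OE, against 445, 538 and 533 FPKM in MYB2-SRDX and 1.01, 0.48 and 0.59 FPKM in Col; reads of the native gene and of the transgene cannot be told apart. The libraries of the lines overlapped, and the direct difference was 0.04 ± 0.26 (SE) on the log2(FPKM + 1) scale, with a limma adjusted p of 0.913. That does not show that the lines are alike in MYB2 level. One library in each line stood apart from the others. MYB2-OE replicate 2, which had the lowest MYB2, was the library of its line nearest to Col at 197 of the 299 loci (65.9%), against 54 and 36 loci for replicates 1 and 3. LBD29, which is not among the 299 loci, stood at 109 FPKM in that replicate, at 1.82 and 1.93 FPKM in replicates 1 and 3 of the line and at 2.55 to 3.08 FPKM in Col. Whether that library is mixed with another line was not tested, and it enters every MYB2-OE mean and SD given here. In MYB2-SRDX, the library with the column ending 1 (library 1 below) was the farthest from Col at 135 loci (45.2%), of which 53 were among the 98 loci lower in MYB2-OE and higher in MYB2-SRDX. It was also the nearest to Col at 120 loci (40.1%), 42 of them among those 98, against 91 and 69 loci for the other libraries of that line. None of 11 root tissue marker genes was listed in either table, so the tissue label could not be checked on values. In whole roots, fewer cells of a type and less RNA per cell cannot be told apart.

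Most shared loci lay on opposite sides of Col. By the calls in the authors' deposited tables, 112 loci (37.5%) were higher in MYB2-OE and lower in MYB2-SRDX, and 98 (32.8%) were lower in MYB2-OE and higher in MYB2-SRDX, which makes 210 opposite loci (70.2%). They are called the OE-high and the SRDX-high loci below. On the same side of Col stood 44 loci higher in both lines (14.7%) and 45 lower in both (15.1%), called both-high and both-low. Among all listed loci the share listed as higher was 52.4% in MYB2-OE and 52.9% in MYB2-SRDX. The 2 comparisons share the Col libraries, so a stray Col value moves a locus the same way in both. All libraries of both lines stood apart from all Col libraries at 220 of the 299 loci (73.6%). That held for 102 of the 112 OE-high, 68 of the 98 SRDX-high, 22 of the 44 both-high and 28 of the 45 both-low loci. Same-side loci were also more often weakly expressed. A highest group mean of at least 10 FPKM was reached by 55 OE-high, 41 SRDX-high, 8 both-high and 10 both-low loci.

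**Figure D1:**
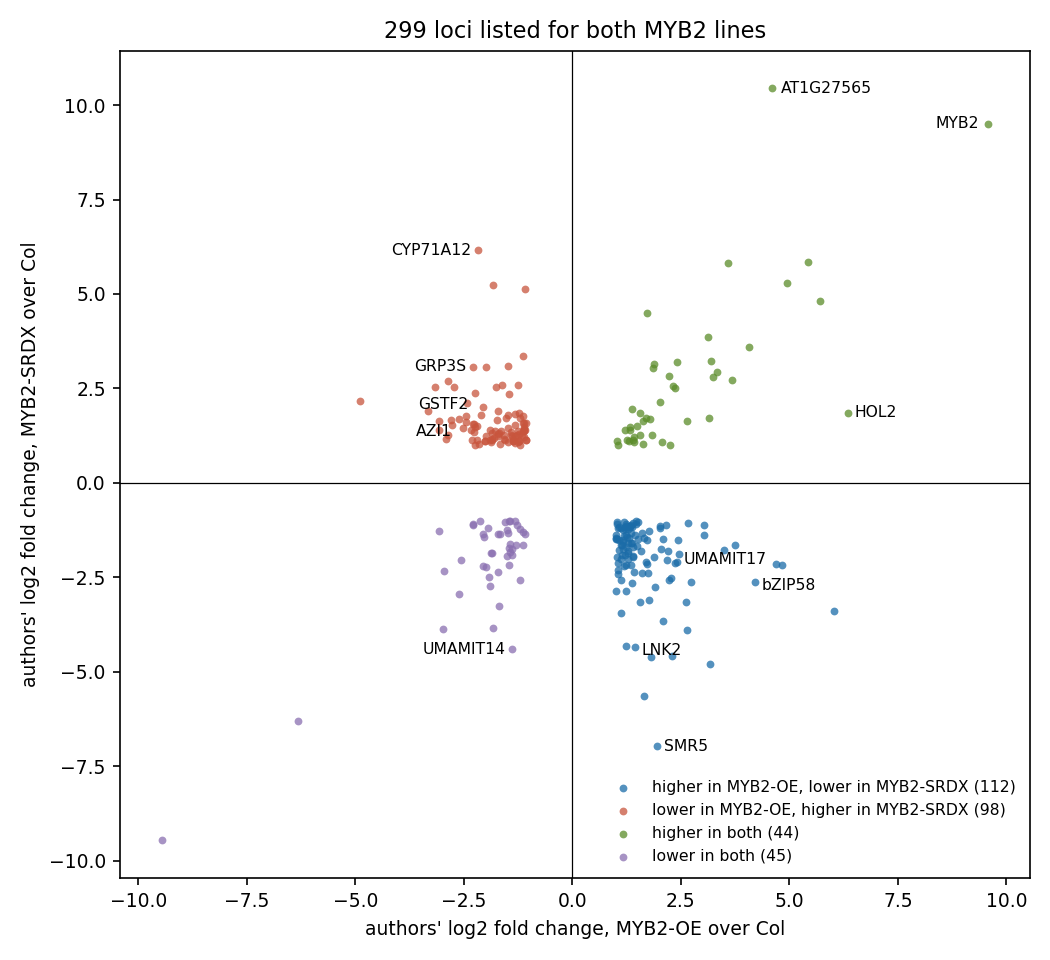
Each point is 1 of the 299 shared loci, with the authors' log2 fold change of MYB2-OE over Col on the horizontal axis and of MYB2-SRDX over Col on the vertical axis. The lower right and upper left quadrants hold the 112 and 98 opposite loci, the upper right and lower left quadrants the 44 and 45 loci on the same side of Col, and no point lies within 1 log2 unit of either axis line because the tables were filtered.

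The OE-high loci had median log2 fold changes of 1.38 in MYB2-OE and -1.73 in MYB2-SRDX, and the SRDX-high loci -1.70 in MYB2-OE and 1.39 in MYB2-SRDX. The both-high loci had medians of 1.96 in MYB2-OE and 1.85 in MYB2-SRDX, and the both-low loci -1.68 in MYB2-OE and -1.74 in MYB2-SRDX. These values describe the lists and carry no test, since the same calls chose the loci. Of the 299 loci, 42 had a highest group mean under 1 FPKM, and their folds are the least certain.

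Sequence upstream of the annotated gene start was read for the 299 loci from the TAIR10.1 RefSeq genome, 250 bases each, and set against 27443 protein-coding genes of the same genome. The evening element, AAAATATCT on either strand, is the site that dawn-phased clock proteins such as CCA1 and RVE8 bind. It stood in 11 of the 98 SRDX-high (11.2%), 2 of the 112 OE-high (1.79%), 1 of the 44 both-high and 0 of the 45 both-low loci, and in 2.36% of all protein-coding genes. The G-box, CACGTG, whose letters read the same on either strand, is bound by bZIP and bHLH factors. It stood in 15 of the 112 OE-high loci (13.4%), in 6.12% of SRDX-high, 2.27% of both-high and 4.44% of both-low loci, and in 6.49% of all genes. TAACTG, a site described for MYB2 itself, stood in 3.57% of OE-high, 5.10% of SRDX-high, 9.09% of both-high and 8.89% of both-low loci, and in 8.12% of all genes. Further sites were searched in the same way, on both strands. The MYB site AAACCA stood in 25.9 to 35.6% of the loci of a class and in 27.3% of all genes, the MYB site TAACCA in 9.09 to 22.2% and in 17.0%, and the CCA1 site AAAAATCT in 2.22 to 6.12% and in 6.69%. None of these 6 motifs lies whole within another. A match is a description of the letters and does not show a bound site.

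Evening element windows are given below for 4 of the 11 loci, EARLI1, FLC, RbcX1 and RHL41. These windows were chosen after the values were seen, and a link to the dawn clock genes described next was not tested. Each runs 5′ to 3′ on the strand that carries the motif, which is in capitals, with 10 bases on either side.
EARLI1, chr4:7407036-7407064, plus strand: gcaattctacAAAATATCTgtttatttat
FLC, chr5:3179489-3179517, minus strand: caaaaaaaaaAAAATATCTggcccgacga
RbcX1, chr4:2118642-2118670, plus strand: ttcacacattAAAATATCTaggatatgga
RHL41, chr5:24102651-24102679, plus strand: atatccaaatAAAATATCTttaaaaagaa
Windows around the G-box (in capitals, the one farthest upstream where there is more than 1) are shown on the gene's strand. They cover 2 clock genes and 3 genes grouped here under water deficit, among the 15 loci.
LNK3, chr3:3923334-3923359, plus strand: aatcacatgcCACGTGtcttattctc
PRR9, chr2:19232353-19232378, plus strand: aatagaaaccCACGTGtcatccacat
LEA7, chr1:19619496-19619521, plus strand: cgtgagtcacCACGTGtctaacatct
HVA22D, chr4:12827664-12827689, plus strand: agaatctcgcCACGTGtgggataaac
SNRK2.7, chr4:18551308-18551333, minus strand: tgagagatgcCACGTGtcaaatgggc

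Genes of the morning clock lay on opposite sides of Col as a group. The plant clock is a loop in which genes expressed around dawn and genes expressed around dusk repress each other. Of 14 dawn-phased clock genes, 6 were among the 299 loci. All 6 were higher in MYB2-OE and lower in MYB2-SRDX, against 37.5% of all shared loci. The MYB2-OE table held these 6 as higher and 0 as lower, and the MYB2-SRDX table held 11 as lower and 0 as higher. LNK2, a coactivator of clock genes, measured 67.7, 76.3 and 66.7 FPKM in MYB2-OE, against 1.01, 1.36 and 1.37 FPKM in MYB2-SRDX and 19.6, 28.8 and 29.5 FPKM in Col. The 3 genotypes did not overlap at this gene, and MYB2-SRDX stood farther from Col than MYB2-OE did. RVE8, a MYB-like activator that works with the LNK proteins, measured 50.1, 49.7 and 46 FPKM in MYB2-OE, against 3.52, 3.08 and 3.27 FPKM in MYB2-SRDX and 22.7, 23.8 and 25.4 FPKM in Col. The related coactivator genes LNK3 and LNK4 were lower in level. LNK3 had 8.2, 4.7 and 6.05 FPKM in MYB2-OE, against 0.23, 0.16 and 0.27 FPKM in MYB2-SRDX and 2.47, 2.13 and 1.82 FPKM in Col, and LNK4 had 8.44, 8.68 and 8.15 FPKM in MYB2-OE, against 0.64, 0.48 and 0.82 FPKM in MYB2-SRDX and 3.78, 3.57 and 4.21 FPKM in Col. PRR9, a morning repressor, and CDF1, a Dof factor that holds back flowering genes, were weakly expressed. PRR9 averaged 2.2 ± 0.983 FPKM in MYB2-OE, 0.337 ± 0.1 FPKM in MYB2-SRDX and 0.923 ± 0.0153 FPKM in Col, and CDF1 averaged 2.77 ± 0.491 FPKM in MYB2-OE, 0.267 ± 0.0907 FPKM in MYB2-SRDX and 1.22 ± 0.0643 FPKM in Col (SD, n = 3 each). All libraries of both lines stood apart from Col at all 6 genes, and all 6 stayed past 2-fold on their own sides, in folds recomputed at a pseudocount of 0.1, without MYB2-SRDX library 1, without MYB2-OE replicate 2 and without both. The log2 falls in MYB2-SRDX, -1.44 to -4.35, were each larger in size than the rises in MYB2-OE, 1.01 to 1.55, in the authors' deposited tables. That difference in size was not tested. Whether the genotypes were harvested at the same time of day was not tested either, so a shift in phase and a change in level were not told apart.

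On the other side of Col stood ELF4, the 1 shared member of 12 day- and dusk-phased clock genes and a subunit of the evening complex. ELF4 measured 42.4, 33 and 40.01 FPKM in MYB2-OE, against 244, 215 and 216 FPKM in MYB2-SRDX and 83.8, 79 and 125 FPKM in Col, with no overlap between groups. The evening element did not occur in its 250 bases. The loci that had the element were named after their values were seen. COR27, which encodes a cold-induced regulator that feeds into the clock, measured 1.89, 1.23 and 1.27 FPKM in MYB2-OE, against 12, 11.8 and 12.4 FPKM in MYB2-SRDX and 3.73, 4.56 and 7.89 FPKM in Col. AT4G30650, annotated as a low temperature and salt responsive protein, had 11.2, 13.1 and 10.4 FPKM in MYB2-OE, against 50.2, 60.5 and 75.7 FPKM in MYB2-SRDX and 25.2, 24.8 and 27.2 FPKM in Col. Both were evenly raised over the 3 MYB2-SRDX libraries. FLC, the MADS-box repressor of flowering, had 0.98, 1.67 and 0.82 FPKM in MYB2-OE, against 5.49, 7.83 and 7.87 FPKM in MYB2-SRDX and 2.47, 2.88 and 3.63 FPKM in Col. The zinc finger gene RHL41, a regulator of cold and oxidative stress responses, had 4.74, 5.14 and 5.21 FPKM in MYB2-OE, against 36.6, 16 and 16.9 FPKM in MYB2-SRDX and 8.91, 9.3 and 13.2 FPKM in Col, highest in library 1. Every FLC and RHL41 library of either line lay outside the Col range. Over the 11 loci the median log2 fold change was -1.47 in MYB2-OE and 1.16 in MYB2-SRDX. Both lines stood apart from Col at 10 of the 11, against 68 of the 98 SRDX-high loci. In folds recomputed at a pseudocount of 0.1, all 11 passed 2-fold on both sides with all libraries and 8 without MYB2-SRDX library 1, against 83 and 60 of the 98.

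**Figure D2:**
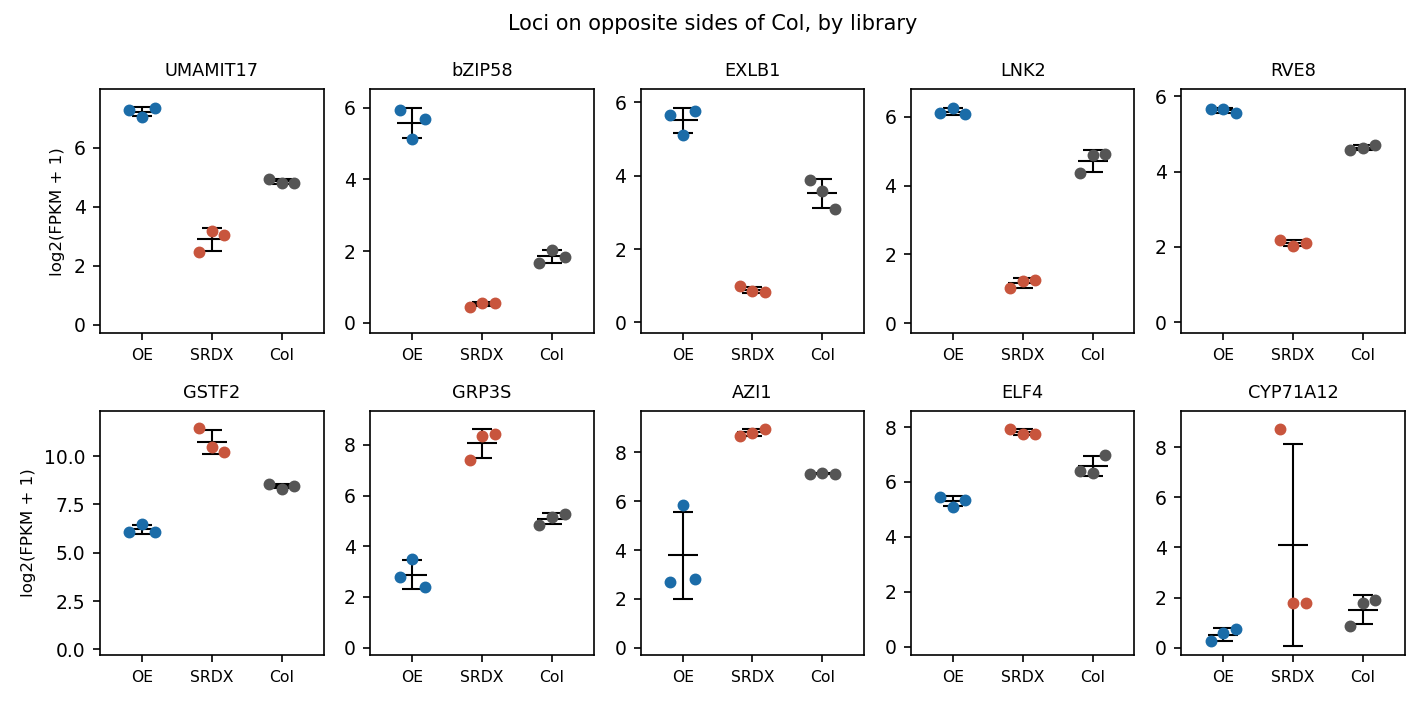
Each panel shows 1 opposite locus, with log2(FPKM + 1) on the vertical axis and the libraries of MYB2-OE (OE), MYB2-SRDX (SRDX) and Col as points in columns from left to right. Black bars are the group mean and SD of the 3 libraries. In the upper row MYB2-OE is above Col and MYB2-SRDX below, and in the lower row the order is reversed. AZI1 has 1 MYB2-OE library (replicate 2) nearer to Col, and CYP71A12 rests on 1 MYB2-SRDX library.

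Beyond the clock, the loci higher in MYB2-OE and lower in MYB2-SRDX included genes for export, cell wall loosening and gene regulation. UMAMIT17, of a family of amino acid exporters, measured 154, 131 and 160.12 FPKM in MYB2-OE, against 4.47, 7.99 and 7.21 FPKM in MYB2-SRDX and 29.7, 27.1 and 27.1 FPKM in Col. Its relative UMAMIT29 measured 64.9, 47.4 and 65.9 FPKM in MYB2-OE, against 4.65, 5.95 and 4.4 FPKM in MYB2-SRDX and 14.8, 14.6 and 12.7 FPKM in Col. Neither gene had overlapping groups. Direct differences between the lines were 4.33 ± 0.227 and 3.32 ± 0.195 (SE) on the log2(FPKM + 1) scale. The expansin-like gene EXLB1 measured 49.3, 33.6 and 53.2 FPKM in MYB2-OE, against 0.98, 0.81 and 0.77 FPKM in MYB2-SRDX and 13.7, 11 and 7.49 FPKM in Col. The bZIP factor gene bZIP58 had 60.8, 33.9 and 50.4 FPKM in MYB2-OE, against 0.36, 0.46 and 0.46 FPKM in MYB2-SRDX and 2.2, 3.09 and 2.58 FPKM in Col. At bZIP58 the larger step lay on the MYB2-OE side, with a log2 fold change of 4.20 against -2.63 in MYB2-SRDX, and at EXLB1 on the MYB2-SRDX side, with 2.08 against -3.65. SMR5, which encodes an inhibitor of cyclin-dependent kinases, had 18.3, 18.8 and 12.2 FPKM in MYB2-OE, was listed at 0 in the 3 MYB2-SRDX libraries and had 7.35, 2.46 and 2.93 FPKM in Col.

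Further OE-high loci encode enzymes. BGLU24, a beta-glucosidase gene, had 21, 12.2 and 16.3 FPKM in MYB2-OE, against 0.12, 0.12 and 0.15 FPKM in MYB2-SRDX and 0.88, 0.7 and 0.17 FPKM in Col. ACA1, a carbonic anhydrase gene of the alpha type, had 33.7, 19.1 and 23 FPKM in MYB2-OE, against 0.47, 0 and 0.2 FPKM in MYB2-SRDX and 1.5, 0.9 and 0.54 FPKM in Col. Both were barely expressed in Col, so most of the spread between the lines came from the MYB2-OE side. The cytochrome P450 gene CYP78A8 had 67.1, 46.1 and 55 FPKM in MYB2-OE, against 6.66, 2.41 and 2.71 FPKM in MYB2-SRDX and 17.9, 14.4 and 13.3 FPKM in Col. The triterpene gene MRN1, for marneral synthase, took the same course with 68.5, 54.5 and 44.2 FPKM in MYB2-OE, against 15.8, 2.4 and 2.55 FPKM in MYB2-SRDX and 23.7, 16 and 18.6 FPKM in Col. PHO1;H1, whose product moves phosphate into the xylem, had means of 24 ± 1.84 FPKM in MYB2-OE, 2.89 ± 0.991 FPKM in MYB2-SRDX and 10.9 ± 0.759 FPKM in Col (SD, n = 3 each).

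Transcription factor genes were mostly OE-high. Of the 25 shared loci that the files mark as transcription factors, 15 were higher in MYB2-OE and lower in MYB2-SRDX, 7 the reverse, 2 higher in both and 1 lower in both. That puts 88% on opposite sides, against 70.2% of all shared loci. The 2 higher in both include MYB2, which both lines carry as a transgene. All 3 shared NAC factor genes were higher in MYB2-OE and lower in MYB2-SRDX, a class that holds 37.5% of all shared loci. NAC6, known as a promoter of leaf senescence, measured 18, 14.7 and 18.7 FPKM in MYB2-OE, against 0.83, 0.47 and 0.73 FPKM in MYB2-SRDX and 3.21, 3.86 and 6.63 FPKM in Col. NAC080 had means of 65.6 ± 5.81 FPKM in MYB2-OE, 12.5 ± 2.88 FPKM in MYB2-SRDX and 27.1 ± 4.03 FPKM in Col, and XND1, which restrains xylem differentiation, had 7.13 ± 1.53 FPKM in MYB2-OE, 0.807 ± 0.254 FPKM in MYB2-SRDX and 1.79 ± 0.223 FPKM in Col (SD, n = 3 each). Without library 1 the recomputed log2 fold of MYB2-SRDX over Col was -0.94 for NAC080 and -0.94 for XND1, under 2-fold. Of 5 shared MYB factor genes, MYB112, MYB32 and CPL3 lay on opposite sides, the last a single-repeat MYB gene of epidermal patterning. MYB32 measured 18.6, 10.8 and 14.8 FPKM in MYB2-OE, against 2.28, 3.08 and 2.5 FPKM in MYB2-SRDX and 5.08, 5.65 and 6.73 FPKM in Col. MYB2 itself and MYB15 were listed higher in both. The bHLH genes bHLH11 and HEC1 were higher in MYB2-OE and lower in MYB2-SRDX, and AT5G10570 the reverse, at levels up to 18.2 FPKM for bHLH11 and 1.74 FPKM for AT5G10570.

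The 3 genes grouped here under water deficit, each with a G-box, were picked from the OE-high loci after their values were seen. LEA7 and HVA22D are annotated to response to water deprivation, and SNRK2.7 is not. Of the 11 shared loci with that annotation, 4 were OE-high, 4 SRDX-high, 2 both-high and 1 both-low. LEA7, which encodes a late embryogenesis abundant protein of drying tissues, had 13.9, 7.69 and 7.9 FPKM in MYB2-OE, against 0.17, 0.12 and 0.06 FPKM in MYB2-SRDX and 2.99, 3.48 and 2.03 FPKM in Col. HVA22D, an abscisic acid-induced gene, had 94.8, 82.5 and 84.3 FPKM in MYB2-OE, against 21.3, 11.7 and 14.2 FPKM in MYB2-SRDX and 44.7, 41.2 and 45.6 FPKM in Col. The kinase gene SNRK2.7 had 36.4, 27.9 and 33.6 FPKM in MYB2-OE, against 3.49, 7.3 and 6.97 FPKM in MYB2-SRDX and 14.4, 17.5 and 16.8 FPKM in Col. None of the 3 had overlapping groups, yet 0 of 23 genes in a list of standard abscisic acid and dehydration markers were shared. That list had 2 members higher and 1 lower in MYB2-OE, and 0 higher and 4 lower in MYB2-SRDX. By the GO annotation in the files, 19 shared loci respond to abscisic acid, of which 9 were higher in MYB2-OE and lower in MYB2-SRDX, 8 the reverse, 2 higher in both and 0 lower in both. The 2 higher in both include MYB2, which both lines carry as a transgene. Among the 8 was PYL6, which encodes an abscisic acid receptor, with 5.37, 7.69 and 7.98 FPKM in MYB2-OE, against 21.8, 56.2 and 72.5 FPKM in MYB2-SRDX and 17.4, 19.3 and 26.2 FPKM in Col. At PYL6 the MYB2-SRDX and Col libraries overlapped.

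Most shared defence genes were listed lower in MYB2-OE and higher in MYB2-SRDX, and part of that rests on library 1. Of 26 shared loci annotated to defence response, 19 were in this class, which holds 98 of the 299 loci (32.8%), 5 in the reverse class, 1 higher in both and 1 lower in both. In folds recomputed at a pseudocount of 0.1, 16 loci of this class passed 2-fold on both sides with all libraries and 9 without library 1, while the 5 of the reverse class passed either way. All 5 shared members of a list of 19 genes for indole defence compounds were in this class, where the MYB2-OE table held 10 lower and 0 higher and the MYB2-SRDX table held 8 higher and 0 lower. IGMT3 and IGMT4 methylate indole glucosinolates. IGMT3 measured 71.2, 51.3 and 38 FPKM in MYB2-OE, against 515, 202 and 229.72 FPKM in MYB2-SRDX and 132, 112 and 106 FPKM in Col, and IGMT4 measured 5.73, 4.43 and 2.59 FPKM in MYB2-OE, against 171, 40.4 and 41 FPKM in MYB2-SRDX and 11.2, 14.3 and 18.1 FPKM in Col. All 3 MYB2-SRDX libraries were above Col at both, with library 1 the highest. PAD3, which makes the last step to camalexin, had 0.34, 3.29 and 0.53 FPKM in MYB2-OE, against 31.9, 19.5 and 17.9 FPKM in MYB2-SRDX and 10.6, 9.75 and 10.9 FPKM in Col. CYP81F2, an indole glucosinolate hydroxylase gene, had 1.46, 1.68 and 1.66 FPKM in MYB2-OE, against 99, 4.83 and 5.35 FPKM in MYB2-SRDX and 2.18, 4.14 and 4.25 FPKM in Col. CYP71A12, an earlier camalexin enzyme gene, was far above Col in library 1 and among the Col values in the other MYB2-SRDX libraries, with 0.19, 0.48 and 0.67 FPKM in MYB2-OE, against 426, 2.44 and 2.39 FPKM in MYB2-SRDX and 0.83, 2.39 and 2.78 FPKM in Col. Without library 1 the recomputed log2 fold of MYB2-SRDX over Col was 1.48 for IGMT4, 0.89 for IGMT3, 0.84 for PAD3, 0.52 for CYP81F2 and 0.26 for CYP71A12, so 1 of the 5 stayed past 2-fold. On the MYB2-OE side all 5 stayed past 2-fold without replicate 2.

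The immune regulators FMO1, AZI1 and CBP60G, the 3 shared members of 14 immune signalling genes, were also in this class. CBP60G, a calmodulin-binding regulator of salicylic acid synthesis, had 0.2, 0.26 and 0.28 FPKM in MYB2-OE, against 52.8, 0.68 and 0.73 FPKM in MYB2-SRDX and 0.24, 0.7 and 0.62 FPKM in Col, and neither line stood apart from Col. FMO1, which makes an immune signal from pipecolic acid, had 0.37, 0.39 and 0.57 FPKM in MYB2-OE, against 13.5, 2.31 and 3.16 FPKM in MYB2-SRDX and 1.02, 1.37 and 0.78 FPKM in Col. AZI1, whose lipid transfer protein takes part in systemic immunity, had 5.4, 57 and 6.02 FPKM in MYB2-OE, against 409, 447 and 504 FPKM in MYB2-SRDX and 139, 143 and 138 FPKM in Col. AZI1 was even over the MYB2-SRDX libraries and split in MYB2-OE, where replicate 2 lay nearer to Col. Its neighbour EARLI1, of the same protein family and with an evening element upstream, showed the same split, with 2.37, 32.2 and 3.72 FPKM in MYB2-OE, against 49, 106 and 144 FPKM in MYB2-SRDX and 42.1, 43.7 and 40.3 FPKM in Col. ICS2, an isochorismate synthase gene of salicylic acid synthesis, had 1.46, 3.52 and 0.73 FPKM in MYB2-OE, against 44.6, 19.3 and 20.1 FPKM in MYB2-SRDX and 11.2, 8.71 and 8.45 FPKM in Col. A family of receptor kinases and related receptors, matched by words in symbols and descriptions, had 11 shared loci. It took in AT1G33600, TIR and RLP40, which are not described as kinases. It left out WAKL10, a wall-associated kinase-like gene that was also SRDX-high. Of the 11 matched loci, 8 were SRDX-high, against 32.8% of all shared loci, at 0.767 to 7.87 FPKM as the highest group mean. In the recomputed folds 5 of these 8 passed 2-fold on both sides with all libraries, and 2 without library 1.

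Other members of this class stayed more than 2-fold above Col in MYB2-SRDX without library 1, in the recomputed folds. GSTF2, a glutathione transferase gene and the most abundant ranked locus of the class, measured 66.6, 89.2 and 67.6 FPKM in MYB2-OE, against 2799, 1449 and 1211 FPKM in MYB2-SRDX and 378, 319.57 and 356 FPKM in Col. GRP3S, a glycine-rich protein gene, measured 5.84, 10.3 and 4.19 FPKM in MYB2-OE, against 166, 329 and 342 FPKM in MYB2-SRDX and 27.6, 34.5 and 37.4 FPKM in Col, lowest in library 1. UBC12, a ubiquitin-conjugating enzyme gene, had 0.28, 1.46 and 0.15 FPKM in MYB2-OE, against 17.3, 30.1 and 27.8 FPKM in MYB2-SRDX and 4.09, 4.42 and 4.42 FPKM in Col. The groups did not overlap at these 3 genes. The related GRP-3, a cell wall protein gene named after its values were seen, had 3.12, 8.23 and 4.38 FPKM in MYB2-OE, against 76.8, 73.9 and 73.3 FPKM in MYB2-SRDX and 11.3, 14.4 and 16.9 FPKM in Col. CHX16, for a cation and proton exchanger, had 1.72, 2.36 and 1.54 FPKM in MYB2-OE, against 22.3, 18.9 and 19.96 FPKM in MYB2-SRDX and 8.56, 8.19 and 11.2 FPKM in Col. GLP9, a germin-like gene, and CYP706A1 complete the ranked loci of the class. GLP9 had 2.13, 4.33 and 2.51 FPKM in MYB2-OE, against 219, 36.3 and 40.1 FPKM in MYB2-SRDX and 14, 12.6 and 8.92 FPKM in Col, and CYP706A1 had 1.22, 0.94 and 0.83 FPKM in MYB2-OE, against 41.6, 5.49 and 8.2 FPKM in MYB2-SRDX and 3.06, 3.05 and 3.07 FPKM in Col. Library 1 was the highest at both, and their recomputed log2 folds of MYB2-SRDX over Col were 1.68 and 1.14 without it, against 3.05 and 2.55 with all libraries.

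Some calls turned with a single library. Without library 1, 13 of the 299 loci changed the sign of a recomputed fold. Among them were the photosynthesis genes RBCS1B and RBCS2B, with RBCS1B at 0, 0.94 and 0.28 FPKM in MYB2-OE, against 15.7, 1.02 and 0.46 FPKM in MYB2-SRDX and 2.72, 2.28 and 0.86 FPKM in Col. RBCS1B and RBCS2B are near-identical neighbouring copies between which reads can be split, and the handling of such reads is not given in the sources used here. Of 10 green tissue markers these 2 were lower in MYB2-OE and higher in MYB2-SRDX, and LHCB2.1 was the reverse, with 8.8, 9.27 and 13.8 FPKM in MYB2-OE, against 1.13, 0.17 and 0.21 FPKM in MYB2-SRDX and 5.28, 5.23 and 4.11 FPKM in Col. Of 7 seed markers, 3 were listed higher in MYB2-SRDX and 0 were shared. The part of other cell types in these results was not tested.

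**Figure D3:**
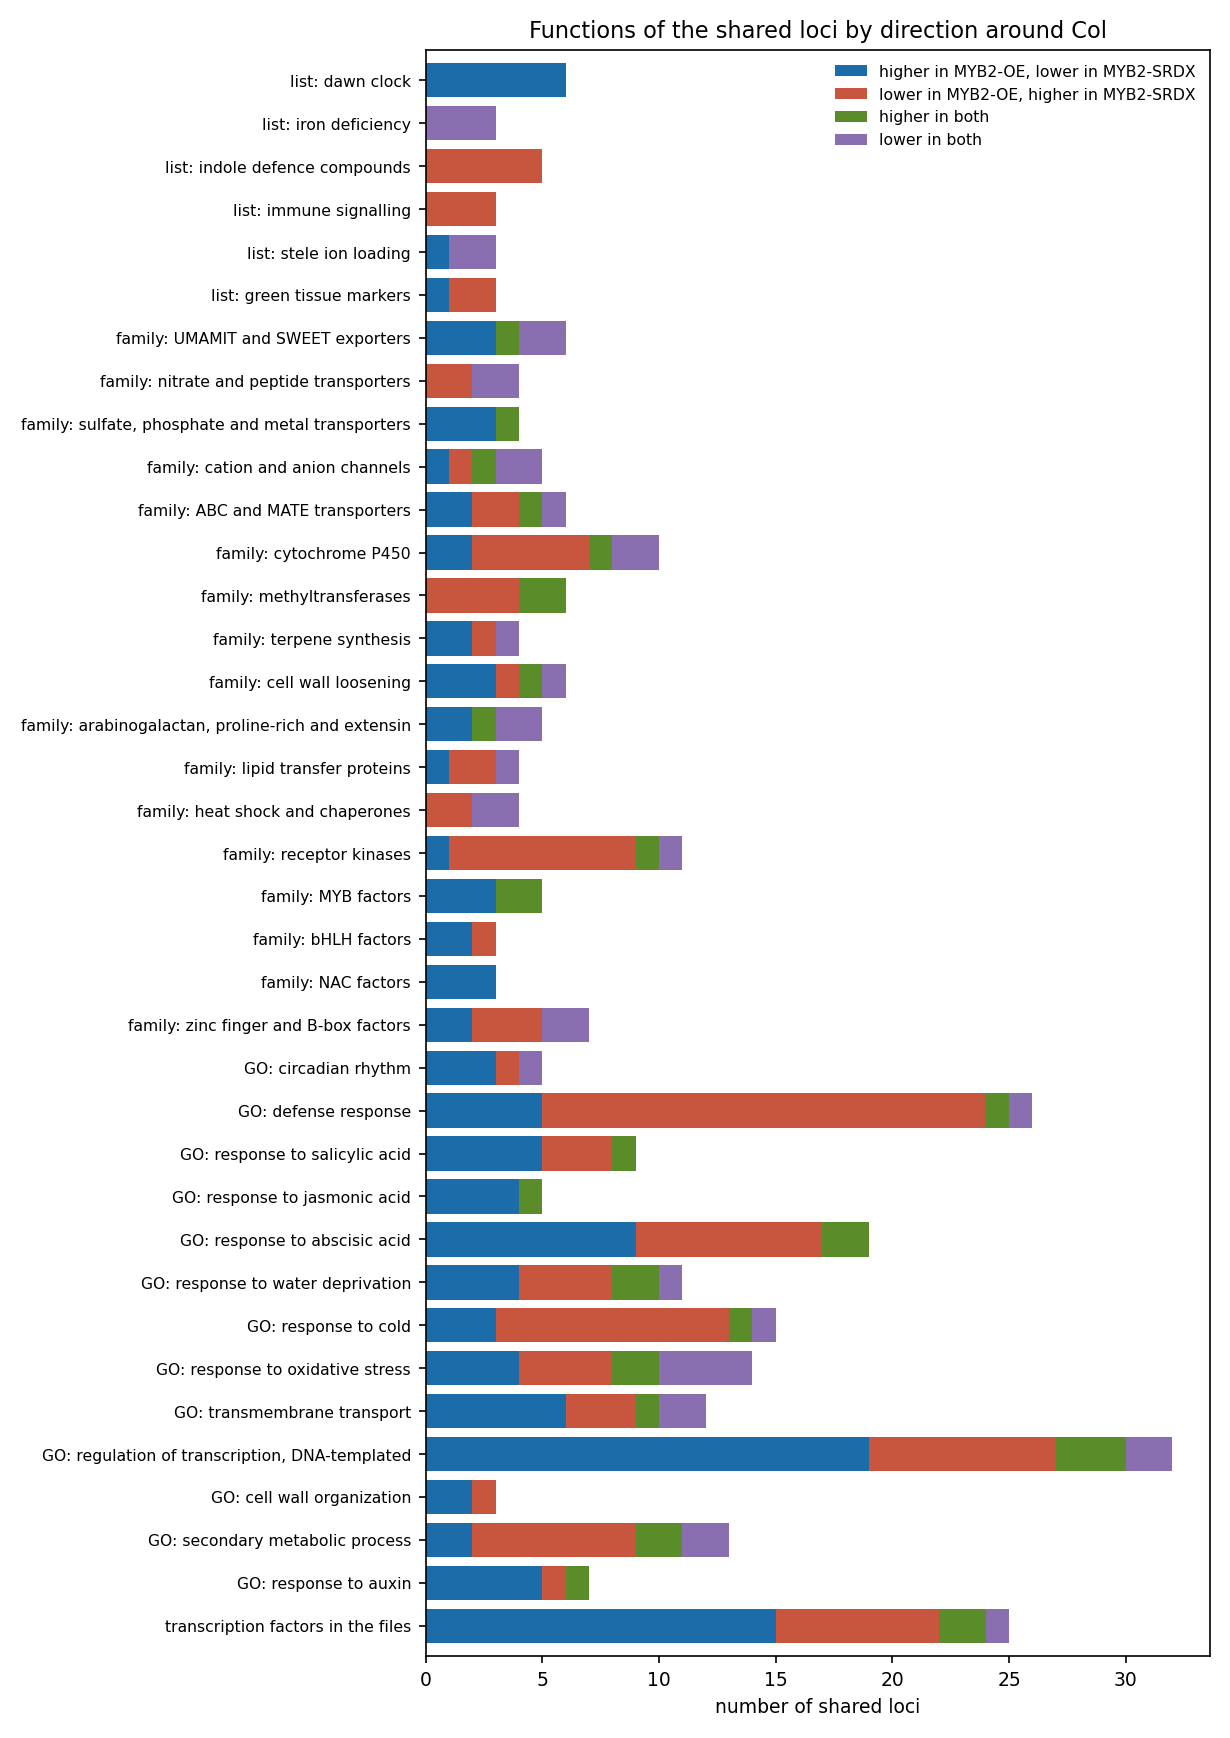
Bars count the shared loci of each gene list, gene family and GO term with at least 3 shared members, with the number of loci on the horizontal axis and the 4 direction classes as colours. The dawn clock and NAC bars hold only loci higher in MYB2-OE and lower in MYB2-SRDX, the indole defence bar only the reverse, and the iron deficiency bar only loci lower in both.

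Among the functions with at least 10 shared loci, the share on opposite sides was 92.3% for defence response (24 of 26), 89.5% for response to abscisic acid (17 of 19), 86.7% for response to cold (13 of 15), 84.4% for regulation of transcription (27 of 32), 75% for transmembrane transport (9 of 12), 72.7% for response to water deprivation (8 of 11), 69.2% for secondary metabolic process (9 of 13) and 57.1% for response to oxidative stress (8 of 14). Among all shared loci it was 70.2%. These sets overlap, and no test of the shares was made. The transgene MYB2 is counted in response to abscisic acid, response to water deprivation and regulation of transcription. Response to cold had 10 loci lower in MYB2-OE and higher in MYB2-SRDX and 3 of the reverse. Over all shared loci these classes held 32.8% and 37.5%, in the same order. All 10 passed 2-fold on both sides in the recomputed folds with all libraries, and 7 of them without library 1. Of the 3 in the reverse class, 2 passed either way. Families of exporters and channels were mixed. The 6 shared UMAMIT and SWEET genes fell into 3 classes. UMAMIT17, UMAMIT29 and SWEET14 were higher in MYB2-OE and lower in MYB2-SRDX, SWEET12 was higher in both, and UMAMIT14 and UMAMIT26 were lower in both. SWEET14 had a highest group mean of 0.99 FPKM, and its MYB2-OE and Col libraries overlapped. Of 10 shared cytochrome P450 genes, 2 were higher in MYB2-OE and lower in MYB2-SRDX, 5 the reverse, 1 higher in both and 2 lower in both. In the recomputed folds those 5 passed 2-fold on both sides with all libraries, and 2 of them without library 1. The lists for jasmonate, nitrate, lateral root and callus, auxin, hypoxia, cytokinin, suberin and flavonoid genes had 0 shared members each.

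**Figure D4:**
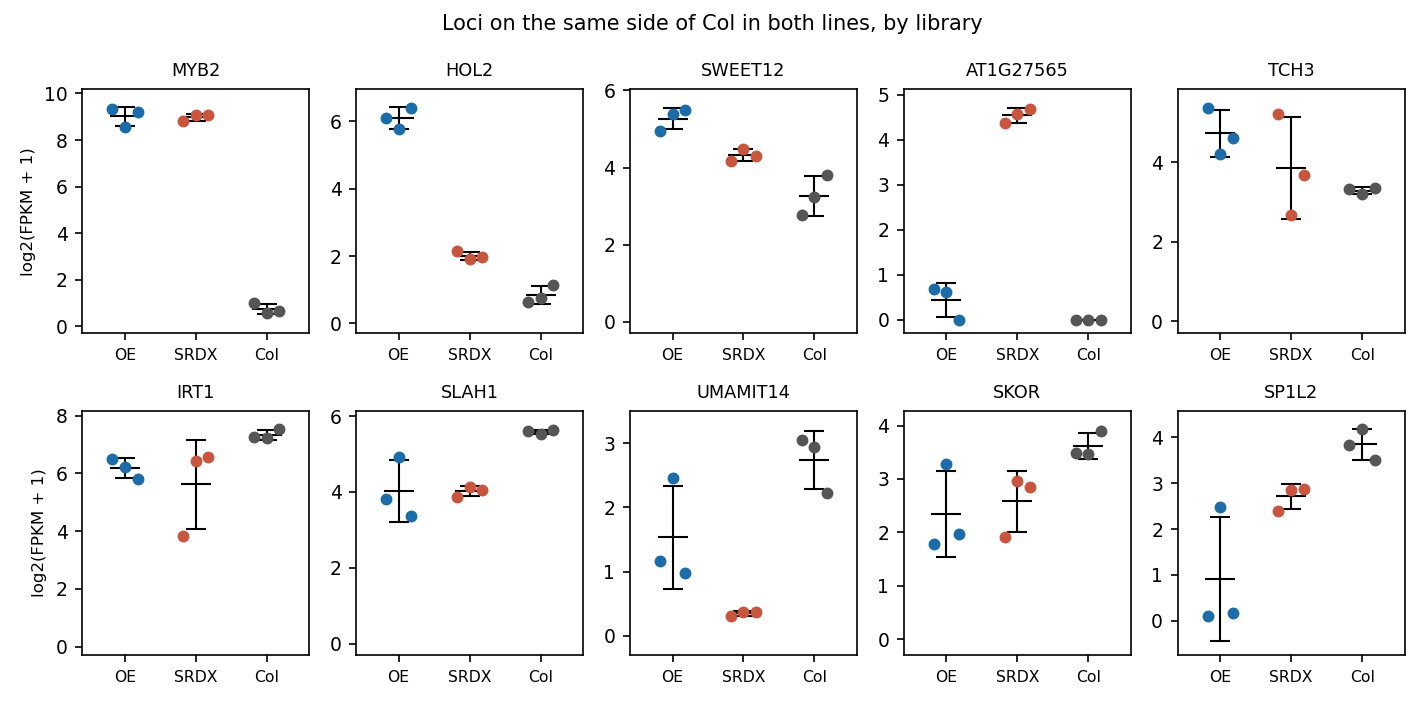
Each panel shows 1 locus on the same side of Col in both lines, with log2(FPKM + 1) on the vertical axis and the libraries of MYB2-OE (OE), MYB2-SRDX (SRDX) and Col as points from left to right. Black bars are the group mean and SD of the 3 libraries. The upper row is higher in both lines and the lower row lower in both. HOL2, AT1G27565 and UMAMIT14 show a gap between the lines, and TCH3 and IRT1 each have 1 MYB2-SRDX library far from the others.

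The loci higher in both lines included a group of glutaredoxin-like genes. All 6 loci of this class annotated as thioredoxin superfamily proteins stood apart from Col in both lines, and all 6 stayed past 2-fold in both without library 1, without replicate 2 and without both. This group was noticed after the values were seen, and loci with that annotation in the other classes were not counted. AT4G15690 measured 2.84, 2.06 and 4.35 FPKM in MYB2-OE, against 2.18, 2.49 and 2.1 FPKM in MYB2-SRDX and 0.3, 0.46 and 0.22 FPKM in Col. AT4G15660, in the same run of such genes on chromosome 4, had 1.97, 1.34 and 2.96 FPKM in MYB2-OE, against 1.23, 1.6 and 1.69 FPKM in MYB2-SRDX and 0.06, 0.21 and 0.1 FPKM in Col. ROXY2, a glutaredoxin gene on chromosome 5, had 4.85, 4.57 and 4.47 FPKM in MYB2-OE, against 3.18, 4.62 and 3.31 FPKM in MYB2-SRDX and 1.27, 1.55 and 2.39 FPKM in Col. AT4G15680 and AT4G15700 lay in the same range. Members of that run are close copies, so reads may be split between them. AT2G30540 was the sixth, with 7, 6.35 and 7.87 FPKM in MYB2-OE, against 4.04, 1.89 and 1.9 FPKM in MYB2-SRDX and 0.36, 0.92 and 1.12 FPKM in Col. In LBD29-OE, which shares the Col libraries, the authors' log2 fold changes were 4.96 for AT4G15660, 1.88 for AT4G15680 and 1.77 for AT4G15690. They were 0.43 for AT4G15700 and 2.32 for AT2G30540. SWEET12, a sucrose exporter gene and the 1 shared member of 9 sugar starvation genes, measured 30.1, 40.6 and 43.7 FPKM in MYB2-OE, against 17.1, 21.3 and 18.8 FPKM in MYB2-SRDX and 5.79, 8.36 and 12.9 FPKM in Col. HOL2, a methyltransferase gene, measured 68.3, 54 and 84 FPKM in MYB2-OE, against 3.41, 2.73 and 2.96 FPKM in MYB2-SRDX and 0.56, 0.7 and 1.21 FPKM in Col. MYB2, HOL2 and SWEET12 were the only loci of this class with a symbol, at least 10 FPKM and both lines apart from Col.

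Other loci of that class rested on library 1. TCH3, a calmodulin-like gene of touch responses, had 40.1, 17.4 and 23.2 FPKM in MYB2-OE, against 36.1, 5.39 and 11.8 FPKM in MYB2-SRDX and 8.94, 8.17 and 9.21 FPKM in Col. MYB15, a MYB factor gene of stress responses, had 1.36, 0.63 and 1 FPKM in MYB2-OE, against 6.24, 0.3 and 0.3 FPKM in MYB2-SRDX and 0.37, 0.3 and 0.17 FPKM in Col. AT3G18250, annotated as a membrane lipoprotein, had 37.1, 21.7 and 35.7 FPKM in MYB2-OE, against 66.8, 2.65 and 1.54 FPKM in MYB2-SRDX and 1.83, 3.76 and 3.76 FPKM in Col. At these 3 genes the MYB2-OE libraries were all above Col, and the range of MYB2-SRDX libraries 2 and 3 overlapped that of Col. Without library 1 the class had 23 loci past 2-fold in both lines, against 35 with all libraries, in folds recomputed at a pseudocount of 0.1.

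Shared genes of iron uptake were lower in both lines. Of 23 iron deficiency genes, the 3 shared ones (IRT1, CYP82C4 and AT3G12900) were all lower in both, against 15.1% of all shared loci. For that list the MYB2-OE table held 9 lower and 0 higher and the MYB2-SRDX table held 6 lower and 1 higher. IRT1, the main iron transporter of the root surface, measured 89.3, 73.3 and 55.1 FPKM in MYB2-OE, against 13.4, 85.9 and 93.3 FPKM in MYB2-SRDX and 151, 150.17 and 185 FPKM in Col. Every library of both lines was below Col, and library 1 was far below the others. CYP82C4, which acts in the synthesis of iron-mobilizing coumarins, measured 9.93, 6.85 and 3.61 FPKM in MYB2-OE, against 1.62, 6.14 and 6.29 FPKM in MYB2-SRDX and 19.5, 15.1 and 18.6 FPKM in Col. AT3G12900, an oxygenase gene, was at 1.23 FPKM or less in all libraries. Without library 1 the recomputed log2 fold of MYB2-SRDX over Col was -0.85 for IRT1, -1.50 for CYP82C4 and -1.60 for AT3G12900. In LBD29-OE, which shares the Col libraries, the authors' log2 fold changes of the 3 genes were -1.67, -1.40 and -1.89.

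Genes for 2 channels that load ions into the xylem were lower in both lines too. SLAH1, a subunit of an anion channel of the stele, measured 12.9, 29.5 and 9.24 FPKM in MYB2-OE, against 13.7, 16.6 and 15.7 FPKM in MYB2-SRDX and 48.1, 44.7 and 48.3 FPKM in Col. SKOR, the outward potassium channel of the stele, measured 2.44, 8.67 and 2.93 FPKM in MYB2-OE, against 2.78, 6.83 and 6.21 FPKM in MYB2-SRDX and 10.2, 10.01 and 14 FPKM in Col. At both genes MYB2-OE replicate 2 was the library nearest to Col, and no library of either line reached Col. These 2 and PHO1;H1 were the 3 shared members of 10 genes of stele ion loading, where the MYB2-OE table held 1 higher and 3 lower and the MYB2-SRDX table held 0 higher and 6 lower. Without library 1 SKOR stood at a recomputed log2 of -0.79 and SLAH1 at -1.54 in MYB2-SRDX. SP1L2, which encodes a microtubule-associated protein of the SPIRAL1 family, had 0.07, 4.58 and 0.12 FPKM in MYB2-OE, against 4.27, 6.22 and 6.33 FPKM in MYB2-SRDX and 13.3, 17.1 and 10.4 FPKM in Col. Some loci of this class rest on Col alone: LpxC3 was listed at 0 in all 6 libraries of the lines and at 0, 13.7 and 0 FPKM in Col.

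The direct comparison of the lines bears on the same-side loci, since opposite loci had to differ. It was made with limma on log2(FPKM + 1) in the 6 libraries of the lines, with Benjamini-Hochberg adjustment over the 299 loci, and a locus was called at an adjusted p under 0.05 and an absolute log2 difference of at least 1. By that rule 177 of 299 loci were called (59.2%), 103 higher (34.4%) and 74 lower (24.7%) in MYB2-OE than in MYB2-SRDX. The opposite classes contributed 100 loci higher and 73 lower in MYB2-OE, given as a description. Of the 89 same-side loci, 4 were called (4.49%), and 7 had an unadjusted limma p under 0.05. AT1G27565, of unknown function, was at 0.62, 0.54 and 0 FPKM in MYB2-OE, against 19.7, 22.8 and 24.7 FPKM in MYB2-SRDX and 0 in the 3 Col libraries, a difference of -4.10 ± 0.243 (log2, SE; limma adjusted p = 5.26e-05). HOL2 differed by 4.09 ± 0.199 (limma adjusted p = 3.14e-05), with all MYB2-OE libraries above all MYB2-SRDX libraries. AT2G30540 differed by 1.21 ± 0.271 (limma adjusted p = 0.00778), higher in 3 of 3 MYB2-OE libraries, and by 0.78 after quantile normalization, under the limit on size. UMAMIT14 measured 1.24, 4.47 and 0.98 FPKM in MYB2-OE, against 0.24, 0.3 and 0.3 FPKM in MYB2-SRDX and 7.27, 6.66 and 3.68 FPKM in Col and differed by 1.18 ± 0.399 (limma adjusted p = 0.0408). The UMAMIT14 call was lost when any 1 library other than MYB2-OE replicate 3 was left out, with a difference of 0.72 without MYB2-OE replicate 2 and limma adjusted p from 0.0537 to 0.0942 without each of the others. Its relative UMAMIT26 had 1.16, 4.33 and 1.56 FPKM in MYB2-OE, against 3.02, 2.51 and 2.92 FPKM in MYB2-SRDX and 6.27, 6.87 and 6.92 FPKM in Col, and its difference of -0.30 ± 0.37 did not pass (limma adjusted p = 0.534). SWEET12 differed by 0.95 ± 0.189 (limma adjusted p = 0.00453), under the limit on size. For IRT1 the difference was 0.56 ± 0.765, for SLAH1 0.01 ± 0.412 and for SKOR -0.24 ± 0.498, none of them past the threshold, which does not show that the lines are alike at these genes. Without library 1, 8 same-side loci were called, and 12 without library 1 and MYB2-OE replicate 2 together. With p-values adjusted over the 89 same-side loci alone, 2 were called, HOL2 and AT1G27565, and the calls of AT2G30540 and UMAMIT14 were lost. The adjustment over all 299 loci includes 210 that had to differ.

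Neighbouring shared genes fell into the same class. There were 11 pairs of genes that follow each other in the annotation, made up of 20 loci. Both genes of each pair had the same directions, with 3 pairs higher in MYB2-OE and lower in MYB2-SRDX, 5 the reverse, 2 higher in both and 1 lower in both. Over all 299 loci these classes held 37.5, 32.8, 14.7 and 15.1%, in the same order. How often shared loci that are not neighbours fall into the same class was not computed. The pairs included AZI1 and EARLI1, PYL6 and DREB2C, LSU3 and LSU1, the glutaredoxin-like run and RBCS2B with RBCS1B. Reads shared between close copies or overlapping transcripts were not separable here, and their part in these pairs was not tested.

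The LBD29-OE line gives a side reading for the same loci, from the log2 fold changes that the authors' deposited tables repeat for it. All 3 comparisons share the Col libraries. The median LBD29-OE log2 fold change was 0.19 over the 112 OE-high loci, -1.26 over the 98 SRDX-high loci, 0.48 over the 42 both-high loci with a value and -0.86 over the 45 both-low loci. Over the 297 loci with a value it was -0.39. A log2 of -1 or below was reached in LBD29-OE by 95 of these 297 loci (32.0%), of which 11 were OE-high, 60 SRDX-high, 4 both-high and 20 both-low. A log2 of 1 or above was reached by 30 (10.1%), of which 12 were OE-high, 3 SRDX-high, 15 both-high and 0 both-low. Single genes show the range. IGMT4 stood at -1.75 in MYB2-OE, 2.55 in MYB2-SRDX and -4.04 in LBD29-OE, and ELF4 at -1.32 in MYB2-OE, 1.23 in MYB2-SRDX and -1.42 in LBD29-OE. UMAMIT17 stood at 2.41 in MYB2-OE, -2.09 in MYB2-SRDX and 0.15 in LBD29-OE. PHT1;9, a phosphate transporter gene, stood at 2.21 in MYB2-OE, -1.80 in MYB2-SRDX and -2.49 in LBD29-OE. It was weakly expressed, with means of 2.06 FPKM in MYB2-OE, 0.127 FPKM in MYB2-SRDX and 0.447 FPKM in Col. Its MYB2-SRDX libraries did not all stand apart from Col.

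**Figure D5:**
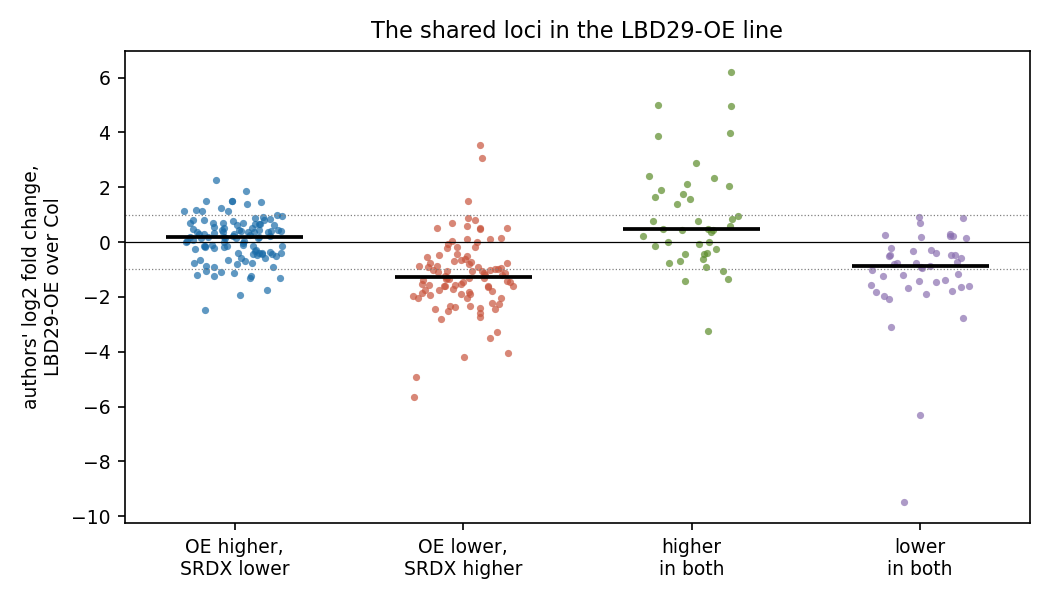
Each point is 1 shared locus with a value for LBD29-OE, with the authors' log2 fold change of LBD29-OE over Col on the vertical axis and the 4 direction classes of the MYB2 lines along the horizontal axis. Black lines are class medians (0.19, -1.26, 0.48 and -0.86), dotted lines mark a log2 of 1 and -1, and the points are spread sideways at random for legibility.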

How the data were processed

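The authors deposited a table per line against Col with FPKM per library and per group, with a log2 fold change, p-value and Q-value made by the authors, per the file headers. TAIR10 is the genome build per the submitters' processing notes; the sources used here give no aligner, counting tool or name of the authors' test. Only called loci were listed, and Col values were identical in both tables (largest difference 0). FPKM hold no counts, so depth is unknown and no interval from counts is given. MYB2-SRDX columns carry another name than the sample titles and were mapped to the group only, with no replicate number.

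The authors' calls were counted by direction without a test. The direct comparison used limma 3.58.1 in R 4.3.3 (trend) on log2(FPKM + 1), which understates changes of low genes, over the 299 shared loci. On simulated data for that comparison (299 loci, 100 changed), 83.7% of changes of log2 1.5 and 98% of changes of log2 2.5 were recovered. Python 3.11.15 and pandas 2.3.3 were used for joins. Symbols came from the files for 142 loci and from RefSeq for 10; 147 loci have none. Upstream sequence came from the TAIR10.1 RefSeq genome, whose coordinates are given. The upstream sequence of COR27 is not reported here.

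The loci, the 22 gene lists (277 entries), 28 families, 13 GO terms and 6 motifs were chosen with earlier results of these data known. Loci named by rule had a symbol, a highest group mean of at least 10 FPKM and both lines apart from every Col library, ranked by the smaller absolute log2 fold change: up to 8 per opposite class and 6 per same-side class. To these came the called same-side loci (up to 5 by size), MYB2, LBD29 and up to 4 shared members of each list and family by level. Other loci were named after their values were seen: the evening element, G-box and glutaredoxin-like loci, PYL6, GRP-3, TCH3, LpxC3, AT3G18250, LSU3, JMJD5, TIR, RLP40, WAKL10 and the further dawn clock genes. Alternatives were another pseudocount (0.1), recomputed folds, level filters, Col in the fit, quantile normalization and leaving out libraries. Counts of list members without the libraries that stand apart were added after the data were seen.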

Additional observations from a re-analysis of the deposited data

How the results depend on the processing

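No paired analysis was possible because the MYB2-SRDX columns carry none of the replicate numbers of the labels. Against 210 opposite and 89 same-side loci in the authors' tables, folds taken again from the mean FPKM at a pseudocount of 1 left 76 and 22 loci past 2-fold in both lines, a highest group mean of at least 10 FPKM left 96 and 18, and an absolute authors' log2 of at least 2 in both tables left 24 and 24, by their own construction. At a pseudocount of 0.1 they were 181 and 74. In folds at that pseudocount, so that 2 choices differ from the authors' 210 and 89, leaving out each library in turn gave 153 to 186 opposite and 61 to 74 same-side loci, and leaving out MYB2-OE replicate 2 and MYB2-SRDX library 1 together gave 157 and 59. The share on opposite sides was 68.6 to 77.6% under these settings, except 84.2% at 10 FPKM and 50% at an absolute log2 of 2. The direct comparison called 171 to 185 loci when each library was left out in turn, 192 without both libraries, 182 with Col in the fit, 179 after quantile normalization and 199 at a pseudocount of 0.1, against 177. Of same-side loci it called 4, against 3 to 8 when each library was left out (8 without MYB2-SRDX library 1), 12 without both libraries and 2 when adjusted over same-side loci alone; the cause was not tested. In the difference between the lines, 1060 of the 1105 alternative values of named loci kept their side of the threshold. No named locus changed sign where it was called in the main or the alternative fit. Sign changes of loci called in neither fit, as at IRT1 without MYB2-SRDX library 1, were not counted as reversals. Against Col, 13 of the 299 loci changed the sign of the recomputed MYB2-SRDX fold without library 1, among them RBCS1B (1.51 with all libraries, -1.29 without), RBCS2B (1.33 and -1.30), LSU1 (1.37 and -0.45), AT3G18250 (2.88 and -0.55) and TCH3 (1.01 and -0.03). A depth per library would be needed to say how far the 42 loci under 1 FPKM can be trusted.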
